A study of Homo sapiens with 4 samples.

Results

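The genes of the mitochondrial ribosomal proteins were examined in the FOXK2 ChIP-seq of OVCAR5, a human cell line of high-grade serous ovarian cancer labelled as derived from ascites. Chromatin bound by the forkhead transcription factor FOXK2 was precipitated with an antibody to FOXK2 from 2 biological replicates of cells grown in RPMI medium with serum. There was a single condition, with no treatment, knockdown or other genotype among these samples, and the 2 input libraries were not analysed here. HOMER was run by the authors on each replicate by itself, with hg38 as the genome build, and an assigned gene is the one whose transcription start site (TSS) is nearest, at any distance. Members were all rows whose assigned gene symbol was MRPL or MRPS followed by a number and at most 1 letter A, B or C. They numbered 60 of 12471 peaks in replicate 1 and 88 of 27281 peaks in replicate 2. These symbols cover 78 genes of the human annotation, 49 with MRPL and 29 with MRPS symbols, of which 47 had an assigned peak in replicate 1, 59 in replicate 2 and 63 in at least 1 of them (80.8% of the 78, against 54.4% of all protein-coding genes).

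Mitochondria carry their own ribosome, which translates the few membrane proteins encoded by mitochondrial DNA, all of them subunits of the respiratory chain and ATP synthase. Its RNAs are transcribed inside the organelle, while every one of its proteins is encoded in the nucleus, translated in the cytosol and imported, so that a large set of scattered nuclear genes supplies a single particle. MRPL symbols were given to proteins of the large subunit, which joins amino acids, and MRPS symbols to those of the small subunit, which reads the mRNA. The naming is older than the structures: the products of MRPS18A and MRPS30 sit in the large subunit, and that of MRPS36, now also named KGD4, belongs to the 2-oxoglutarate dehydrogenase complex.

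FOXK2 and other forkhead proteins recognise a core written here as TGTTTAC. This heptamer lay within 100 bp of the peak centre of both replicates at 9 overlapping pairs of peaks assigned to 9 different genes. Each site is shown with 10 bases to either side, on the strand that reads TGTTTAC, with the heptamer in capitals, and the coordinates are those of the whole run on hg38. The promoter sites came first in the set by score (MRPL36) and in the middle of it (MRPL53), and the other 7 sites lay in introns or between genes.
MRPL36 promoter, chr5:1800163-1800189, minus strand: tcccggagccTGTTTACatttctcctg
MRPS18A intergenic, chr6:43699785-43699811, minus strand: gggagatcctTGTTTACcttgcgaggc
MRPL16 intronic, chr11:59787132-59787158, plus strand: gccaagtgagTGTTTACttagaactga
MRPL33 intergenic, chr2:27766416-27766442, minus strand: agagaggaggTGTTTACatacattcca
MRPL53 promoter, chr2:74473078-74473104, minus strand: acctgaatggTGTTTACcttctggtgt
MRPL23 intergenic, chr11:1944056-1944082, minus strand: aaggacttctTGTTTACttccaagtct
MRPS5 intronic, chr2:95115519-95115545, minus strand: cgttgctggcTGTTTACagcagagggc
MRPS11 intronic, chr15:88476857-88476883, plus strand: tttgcctcccTGTTTACttctctggat
MRPL1 intronic, chr4:77882066-77882092, plus strand: cagccaatctTGTTTACcgactatatt

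A second set of letters, AAGATGGC, the core of the sites bound by the zinc finger factor YY1, was shown because it was frequent at the promoter peaks of these genes, as described further on. It lay within 100 bp of both peak centres at 6 genes, and was shown with 11 bases to either side on the strand that reads AAGATGGC. The strand was that of the gene at 5 of the 6. At MRPL45 and MRPS24 the ATG inside the site was an annotated start codon, so these letters belong to the first codons of the protein as well.
MRPL45 first exon, chr17:38297170-38297199, plus strand: tttgcgggaacAAGATGGCagcccccatac
MRPS24 promoter, chr7:43869480-43869509, minus strand: ccgcttggcccAAGATGGCggcctccgtgt
MRPL47 promoter, chr3:179604712-179604741, plus strand: tgccctcacttAAGATGGCcacatcctgcc
MRPL51 promoter, chr12:6493223-6493252, minus strand: gggtaaggcccAAGATGGCtgtcttcgcct
MRPL20 promoter, chr1:1407260-1407289, minus strand: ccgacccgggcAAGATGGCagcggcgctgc
MRPL42 promoter, chr12:93467511-93467540, plus strand: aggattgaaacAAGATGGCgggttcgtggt

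FOXK2 peaks were assigned to most of these genes, and many of the peaks were at the promoter. In both replicates 43 of 78 genes had an assigned peak (55.1%, Wilson 95% interval 44.1% to 65.7%), while this was so for 28.6% of all 20052 protein-coding genes. A further 4 genes had a peak in replicate 1 only (MRPL11, MRPS7, MRPS18C and MRPS35), 16 in replicate 2 only, and 15 in neither. The counts for a single replicate only were not set against all genes. A peak in at least 1 replicate was assigned to 80.8% of the 78, against 54.4% of all protein-coding genes. By replicate, 47 of 78 genes had a peak in replicate 1 (60.3%, against 31.3% of all genes) and 59 of 78 in replicate 2 (75.6%, against 51.7%). Intervals of shares cover counting error only, and no test was made over the genes, since they were chosen with earlier results of these data known.

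Counting only peaks that the deposited annotation places at a promoter, 36 genes had one in replicate 1 (46.2%, against 11.9% of all protein-coding genes) and 41 in replicate 2 (52.6%, against 21.2%). In both replicates such a peak was assigned to 28 of 78 genes (35.9%, 26.1% to 47.0%, against 9.3%), and at all 28 the promoter peaks of the replicates overlapped by at least 1 bp. That overlap was not counted over all genes. Of member promoter peaks, 83.8% in replicate 1 and 70.7% in replicate 2 overlapped a peak of the other list, against 79.1% and 43.9% of all promoter peaks. A promoter peak in both replicates was assigned to 21 of 49 MRPL symbols (42.9%, 30.02% to 56.7%) and 7 of 29 MRPS symbols (24.1%, 12.2% to 42.1%). These intervals overlap, and the difference between the 2 groups of symbols was not tested. Leaving a replicate out changes the promoter count to that of the other, 36 or 41 genes.

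**Figure D1:**
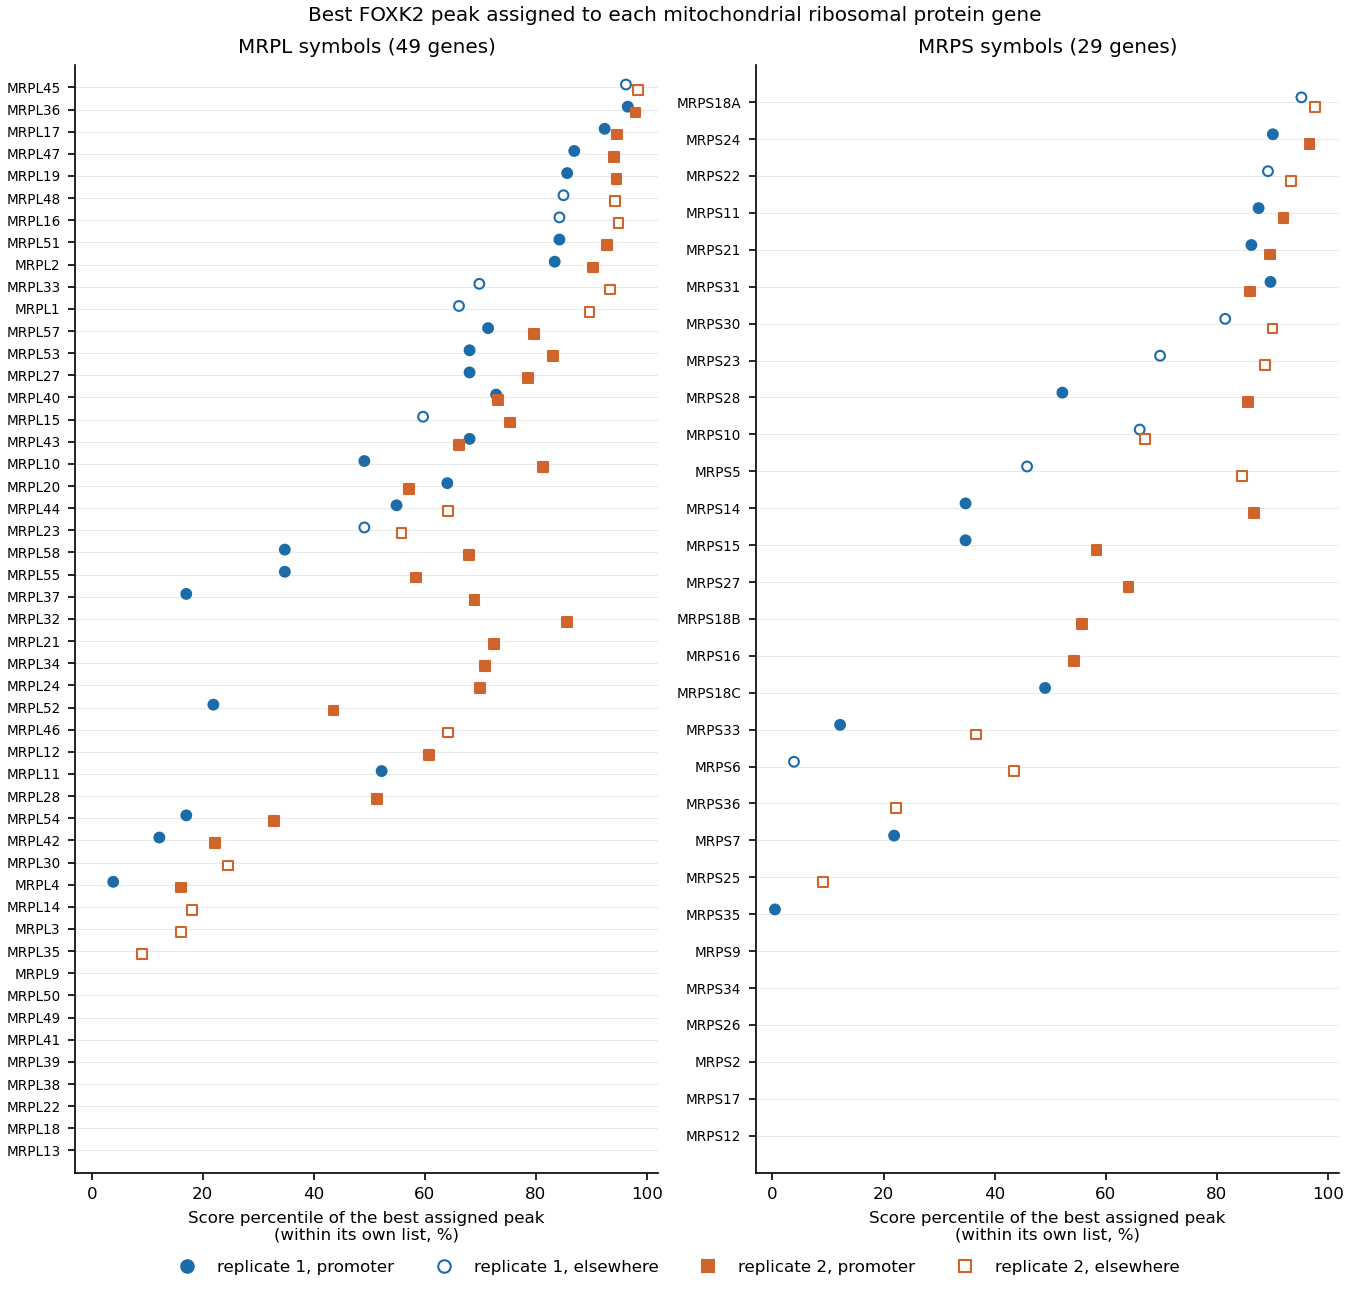
Each row is a gene and each marker its best assigned FOXK2 peak, as the score percentile within the list of replicate 1 (circles) or replicate 2 (squares), filled where that peak is annotated to a promoter and open elsewhere. Rows without a marker are the 15 genes with no assigned peak, 9 with MRPL and 6 with MRPS symbols.

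HOMER scales the score to the library, and scores are given here as percentiles of the list they come from, in which 100 is the strongest peak. Replicate 1 member peaks scored 3.40 to 17.0 in a list that reached 188.3, and replicate 2 member peaks scored 3.72 to 33.2 in a list that reached 387.9. The best member ranks were 429 and 426, at percentiles of 96.5 and 98.4. The median percentile was 61.9 in replicate 1 (order-statistic 95% interval 49.1 to 68.0, 60 peaks) and 64.1 in replicate 2 (55.8 to 70.8, 88 peaks), against 49.1 and 49.98 over all peaks. Of the member peaks, 5 of 60 (8.33%) and 15 of 88 (17.0%) were above the 90th percentile, where 10.1% of all peaks in each list stood.

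Promoter peaks are stronger than others in the whole lists, and within that class the members did not stand above it in both replicates. Their median percentile was 54.9 in replicate 1 (34.8 to 68.0, 37 peaks) and 72.4 in replicate 2 (60.7 to 83.0, 41 peaks), and all promoter peaks had medians of 59.7 and 64.1. Outside promoters the medians were 66.1 (23 peaks) and 48.5 (47 peaks), against 45.8 and 46.9. The sign of the difference from all promoter peaks changed between the replicates, as did that between promoter and other member peaks.

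Among the large subunit genes, the strongest promoter peak was that of MRPL36, which encodes a small protein of the large subunit with a bacterial counterpart. Its score was 17.0 in replicate 1 (rank 429, percentile 96.5) and 29.4 in replicate 2 (rank 561, percentile 97.9), with centres at -342 and -333 bp from the TSS, where negative values are upstream. Among the member promoter peaks it was also the one farthest from a TSS in each replicate, and its heptamer lay within 8 bp of both centres. The MRPL17 promoter peak, at 94 and 58 bp, scored 12.8 (rank 931) and 20.5 (rank 1455) and had no TGTTTAC. At MRPL19 the centres were -3 and -18 bp from the TSS, with scores of 10.2 (rank 1751) and 20.4 (rank 1485), also with no TGTTTAC. All 3 genes encode proteins of the large subunit conserved from bacteria, and the lowest percentile of their peaks in either list was 85.6.

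MRPL47 and MRPL51 also encode large subunit proteins, and both share their promoter with a gene on the opposite strand. The MRPL47 peak scored 10.6 (rank 1588) and 19.8 (rank 1605), at -25 and -13 bp. The annotation named it after NDUFB5, a complex I subunit gene whose TSS is 156 bp away. At MRPL51 the scores were 9.81 (rank 1915) and 18.4 (rank 1955), at -15 and 1 bp. The promoter named was that of NCAPD2, a condensin subunit gene whose TSS is 840 bp from that of MRPL51. Replicate 2 also had a separate peak named for NCAPD2, from 1000 bp upstream to 100 bp downstream of an MRPL51 TSS. The MRPL47 peak, between 2 close starts, cannot be given to either gene from its position.

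Of the small subunit genes, MRPS24 had the strongest promoter peak. It scored 11.7 (rank 1205) and 24.7 (rank 894), at -38 and -19 bp. MRPS11, which encodes a small subunit protein conserved from bacteria, scored 10.8 (rank 1520) and 17.8 (rank 2148), at 103 and 79 bp. Its TSS is 320 bp from that of MRPL46 on the opposite strand, so that a single pair of peaks stands at the promoters of a small and a large subunit gene. In replicate 1 the peak was annotated to the MRPL46 promoter while its assigned gene was MRPS11. MRPS21 scored 10.4 (rank 1682) and 16.1 (rank 2805), at -45 and -55 bp. None of the peaks at these 3 promoters held TGTTTAC.

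By the deposited classes, the best-scored member peak outside promoters was the same in both lists. It lay in the first exon of MRPL45, whose product anchors the mitochondrial ribosome to the inner membrane. By position it also stood from 1000 bp upstream to 100 bp downstream of a GENCODE TSS of MRPL45 in both replicates. It scored 16.4 in replicate 1 (rank 465, 169 bp downstream of the TSS) and 33.2 in replicate 2 (rank 426, 191 bp). This made it the highest-scoring member peak of replicate 2 and the second of replicate 1, behind MRPL36. It had no TGTTTAC, and held the AAGATGGC shown above 7 and 29 bp from the centres.

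**Figure D2:**
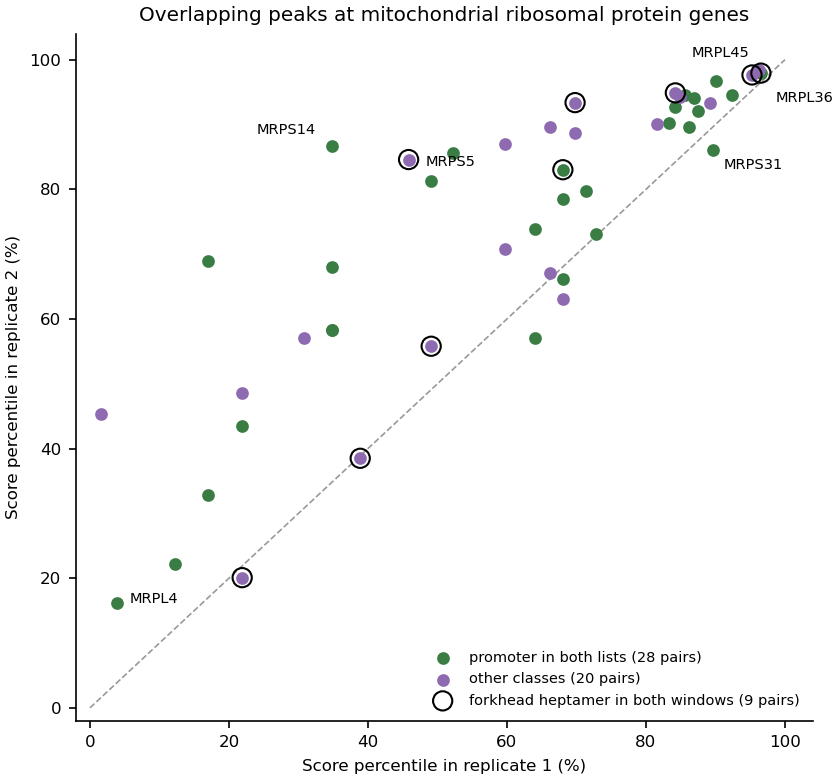
Score percentile in replicate 1 (x axis) and replicate 2 (y axis) of the 48 overlapping pairs of peaks that carry the same member gene in both lists, coloured by annotation class, with rings around the 9 pairs with a forkhead heptamer in both windows and a dashed line of equal percentiles. The percentile was higher in replicate 2 in 42 pairs (87.5%), as it was in 89.4% of all 9343 pairs of these lists of unequal length, and the pairs fall from MRPL45 and MRPL36 at the upper right to MRPL4 at the lower left.

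Most member peaks of the shorter list were found again. Of the replicate 1 member peaks, 50 of 60 overlapped a replicate 2 peak (83.3%, 72.0% to 90.7%, against 74.9% of all replicate 1 peaks). In the other direction 49 of 88 overlapped a replicate 1 peak (55.7%, 45.3% to 65.6%, against 34.2%). The 10 replicate 1 peaks with no partner included the promoter peaks of MRPL11 (score 6.04), MRPL44 (6.23), MRPS33 (4.15) and MRPS35 (3.40, rank 12378 of 12471). Promoter peaks of replicate 2 without a partner included those of MRPL32 (score 14.0, rank 3862), MRPL21 (10.3), MRPL34 (9.96) and MRPL24 (9.82).

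Overlapping pairs with the same member gene in both lists numbered 48, with centres a median of 22 bp apart (29 bp over all 9343 pairs of the lists). Their percentiles correlated with a Spearman rho of 0.871 (0.852 over all pairs), a description across peaks that share 2 libraries. The widest gaps between the replicates were at pairs of middle and low rank, though not all such pairs differed. Intronic pairs of MRPS11 (38.9 and 38.5) and MRPL1 (21.9 and 20.1) were close. At the promoter of MRPS14, a small subunit gene, the percentile was 34.8 in replicate 1 and 86.7 in replicate 2, and at that of MRPL37 it was 17.0 and 68.9. The MRPS31 promoter went the other way, with 89.7 and 86.0. The weakest pair was that of MRPL4, with scores of 3.77 (rank 11801) and 4.61 (rank 22620).

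After the MRPL45 exon, the next best-scored member peak outside promoters was an intergenic one named for MRPS18A in both lists. MRPS18A had 4 peaks in replicate 1 and 3 in replicate 2, all upstream and none at its promoter. The strongest, at -11974 and -11986 bp, scored 15.1 (rank 583) and 28.1 (rank 638) and held the heptamer shown above at 12 and 0 bp from the centres. The 2 other pairs, near -15 and -37 kb, scored 6.60 and 14.6, and 7.36 and 8.77. MRPS22, a small subunit gene with no bacterial counterpart, had 4 peaks in each list. Its strongest, at -41499 and -41521 bp, scored 11.3 (rank 1313) and 19 (rank 1788), while the peak at its own TSS was among the weakest of replicate 1 (3.58, rank 12178) and was annotated to an exon in replicate 2 (6.84, rank 14705).

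MRPL1 had 3 peaks in each list, and all 3 overlapped between them. The intronic peak at 59233 and 59249 bp scored 7.17 and 16.1, the promoter peak at 72 and 56 bp scored 6.98 and 10.6, and the intronic peak with the heptamer, at 19512 and 19434 bp, scored 4.53 and 4.91. Its strongest peak was neither at the promoter nor at the heptamer.

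Replicate 2 had 5 more genes with at least 3 peaks, in a list whose median score was 7.29. MRPL33 had 2 peaks in replicate 1 and 4 in replicate 2, of which a single pair overlapped, at -5284 and -5310 bp, with scores of 7.55 and 19 and a heptamer. MRPL15 had 1 and 3 peaks, with the overlapping pair at 74575 and 74597 bp (6.60 and 9.96) and a promoter peak in replicate 2 alone (10.9). MRPS10 had 2 and 4 peaks, and the overlapping pair lay in the 3′ UTR of TRERF1, a neighbouring gene, at -8989 and -9105 bp (7.17 and 9.37). MRPS24 had 2 distal peaks in replicate 2 that were lacking in replicate 1 (8.63 and 5.95), beside its promoter pair. MRPS27 had 3 peaks in replicate 2, at the promoter (8.92) and in introns (4.61 and 3.72), and none in replicate 1.

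The remaining pairs with a heptamer were mostly distal. MRPL16 took its name from the nearest TSS, but its peak lay in an intron of STX3, at 23638 and 23708 bp, with scores of 9.81 (rank 1915) and 20.8 (rank 1379). MRPL16 also had a peak in replicate 1 in its own 5′ UTR, 163 bp from the TSS, with a score of 9.24 (rank 2246) and no overlapping peak in replicate 2. The intronic MRPS5 peak, at 6010 and 6000 bp, scored 5.66 and 13.5. MRPS11 had a second pair in an intron, at 9389 and 9380 bp, with scores of 5.28 and 6.25, and the intergenic MRPL23 pair, at -3249 and -3171 bp, scored 5.85 and 7.88. At the promoter of MRPL53 the scores were 7.36 (rank 3872) and 12.9 (rank 4575), at -181 and -285 bp. The heptamer was found over the whole range of ranks, from MRPL36 to the weak intronic peak of MRPL1.

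**Figure D3:**
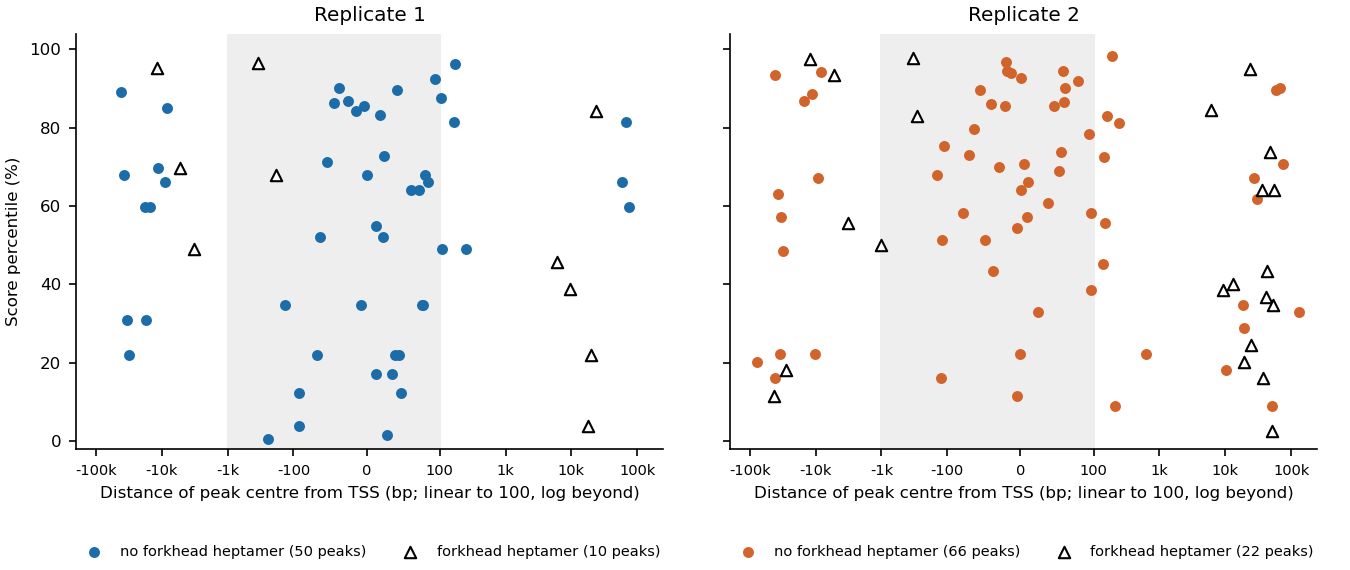
Signed distance of each member peak centre from the TSS of its assigned gene (x axis, linear to 100 bp and logarithmic beyond) against its score percentile (y axis), for the 60 peaks of replicate 1 and the 88 of replicate 2, with open triangles for peaks with a forkhead heptamer and a grey band from 1000 bp upstream to 100 bp downstream. Peaks gather within 100 bp of the TSS, where no triangle lies, and apart from those of MRPL36 and MRPL53 the triangles stand about 1000 bp or more from the TSS.

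By the deposited classes, 37 of 60 member peaks were at promoters in replicate 1 (61.7%, 49% to 72.9%, against 21.7% of all peaks) and 41 of 88 in replicate 2 (46.6%, 36.5% to 56.9%, against 18%). Of these, 30 of 37 and 32 of 41 had their centre within 100 bp of the TSS, which was not counted for all promoter peaks. The median distance of promoter peaks from the TSS was 54 and 55 bp for members, against 83 and 78 bp for all. Introns held 6 and 21 member peaks and intergenic regions 13 and 21. These 2 classes were not set against all peaks. More than 10000 bp from the TSS lay 15 and 35 member peaks, and at that distance the nearest start is a name for the position and not a measured target. The counts beyond 10000 bp were not set against all peaks either. The median distance from the TSS, to either side, was 98.5 and 309 bp for member peaks, against 16139.5 and 20161 bp for all peaks.

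In these peaks, as in the whole lists, TGTTTAC was found in a smaller share at promoters than elsewhere, a difference that was not tested. Among promoter peaks it was found within 100 bp of the centre in 2 of 37 in replicate 1 (5.41%, 1.5% to 17.7%, against 14.4% of all promoter peaks) and in 2 of 41 in replicate 2 (4.88%, 1.35% to 16.1%, against 10.9%), which were MRPL36 and MRPL53 in both lists. Outside promoters it was in 8 of 23 (34.8%, 18.8% to 55.1%, against 35%) and 20 of 47 (42.6%, 29.5% to 56.7%, against 32%). Over all member peaks it was in 10 of 60 (16.7%, 9.31% to 28.0%, against 30.5% of all peaks) and 22 of 88 (25.0%, 17.1% to 35.0%, against 28.2%). In windows 2000 bp to each side of the member peaks it was in 4 of 120 (3.33%) and 5 of 176 (2.84%), against 2.88% and 2.89% of the side windows of all peaks. The shares at promoter peaks had intervals that include those of all promoter peaks and those of the side windows.

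The search was repeated in the promoter sequences of RefSeq (GRCh38.p14), from 250 bases before to 50 after each gene's start, which were matched for 70 of the 78 genes. TGTTTAC on either strand was in 0 of 70 (Wilson upper bound 5.2%), against 2.61% of 15842 protein-coding promoters. Among the 25 of them with a promoter peak in each list it was in 0 (upper bound 13.3%), against 8.06% of the 1589 such promoters of all genes. The sites of MRPL36 and MRPL53 shown above lie outside this window. TGTTTNC, which includes TGTTTAC, was in 7 of 70 (10.0%, against 14.6%).

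Other letters were searched after the values were seen. CGGAAG, the core of ETS factor sites, was within 100 bp of the centre of 16 of 37 member promoter peaks (43.2%, 28.7% to 59.1%, against 29.6% of all promoter peaks) and of 17 of 41 (41.5%, 27.8% to 56.6%, against 29.7%). AAGATGGC was in 5 of 37 (13.5%, 5.91% to 28.0%, against 3.21%) and 8 of 41 (19.5%, 10.2% to 34.0%, against 3.34%). In replicate 2 these 8 were the promoters of MRPS24, MRPL47, MRPL51, MRPL20, MRPL42, MRPS27, MRPS18B and MRPL52. The 2 motifs can overlap, since CGGAAG ends in the letters with which AAGATGGC begins. TGANTCA, the site of AP-1 factors, was in 1 of 37 and 0 of 41 member promoter peaks (against 4.76% and 4.46%).

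The AAGATGGC letters were not confined to members with a promoter peak. Of the 70 RefSeq promoters 20 held it (28.6%, 19.3% to 40.1%, against 3.91% of all), with 7 of the 25 matched genes whose promoter had a peak in both lists (28.0%, 14.3% to 47.6%, against 6.86% of the 1589 such promoters of all genes) and 13 of the other 45 (28.9%, 17.7% to 43.4%). There were 21 sites in these 20 genes, 17 on the strand of the gene (81.0%, against 73.0% of sites in all protein-coding promoters) and 15 at or after the start (71.4%, against 60.7%). The median position was 9 bases after the start, and 10 bases over all protein-coding promoters. CGGAAG was likewise in 13 of 25 (52.0%, 33.5% to 69.97%, against 39.8% of the 1589) and 24 of 45 (53.3%), where all promoters held it in 25.6%. The palindromic site of NRF1, a regulator of nuclear genes for mitochondria, was in 8 of 70 (11.4%, against 8.57%). Within 100 bp of the centre of member promoter peaks it was in 1 of 37 (2.70%, against 8.01% of all promoter peaks) and 2 of 41 (4.88%, against 7.78%). A match is a description of the letters only, and no binding by these other factors was measured.

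**Figure D4:**
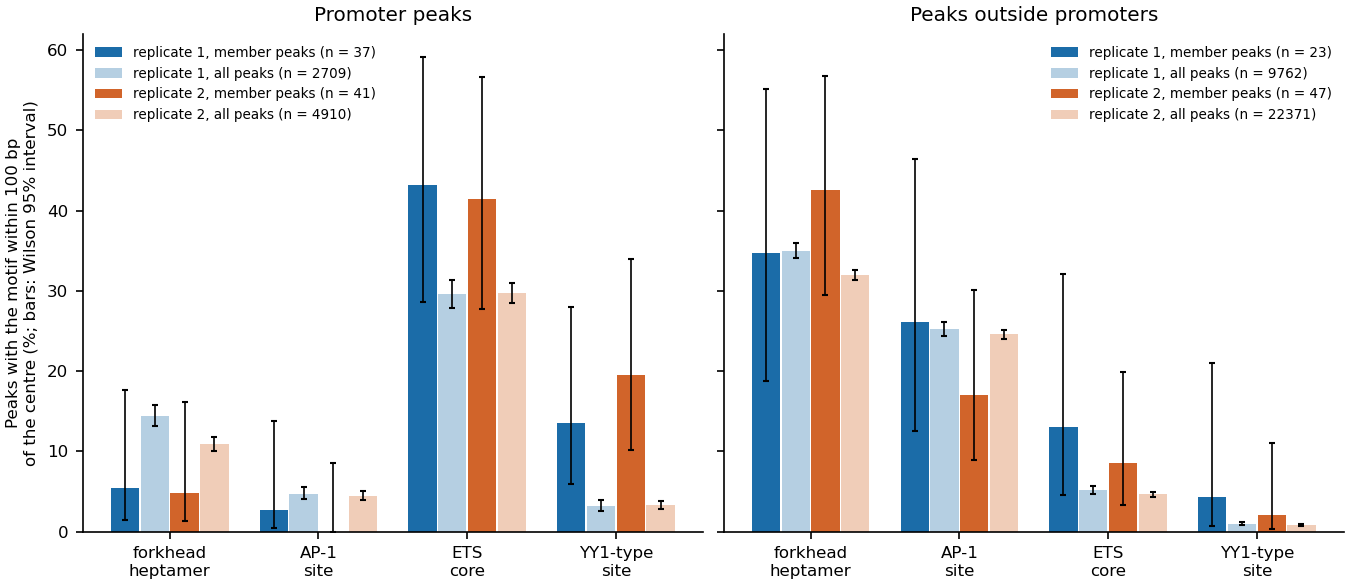
Share of peaks (y axis, percent, with Wilson 95% intervals) that hold each of 4 motifs within 100 bp of the centre, at promoters (left) and elsewhere (right), for member peaks in dark and all peaks of the same list in pale colours. Member promoter peaks hold the forkhead heptamer in 5.41% and 4.88% and the YY1-type site in 13.5% and 19.5%, while outside promoters the heptamer is in 34.8% and 42.6%.

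Many of these genes start close to another gene on the opposite strand, which bears on the assigned names and was examined after the values were seen. A protein-coding start on the opposite strand, from 1000 bp upstream to 100 bp downstream, was annotated in GENCODE for 26 of 78 genes (33.3%, 23.9% to 44.4%, against 9.45% of 19702 genes). Annotated promoter peaks carried the transcript of another gene than the assigned one at 8 members in replicate 1 and 10 in replicate 2. These counts were not set against the promoter peaks of all genes. The other genes included KLC4 for MRPL2, HIRA for MRPL40, and TWNK, the mitochondrial DNA helicase gene, for MRPL43, each in both lists.

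When peaks were placed by position alone, with the centre from 1000 bp upstream to 100 bp downstream of a GENCODE TSS, whatever name they carried, 34 of 78 genes had one in both replicates (43.6%, 33.1% to 54.6%, against 13.8%). With a divergent neighbour the count was 14 of 26 (53.8%, 35.5% to 71.2%, against 31.2% of all genes with such a neighbour), and without one it was 20 of 52 (38.5%, 26.5% to 52.0%, against 12%). A single pair of peaks counts here for both MRPS11 and MRPL46, and the classes were not tested.

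Of the 15 genes with no assigned peak, 4 had a peak in this window under a neighbour's name. At MRPL18 it was the peak of TCP1, a gene of the cytosolic chaperonin, in both replicates, with scores of 16.6 (rank 449) and 29.1 (rank 574). These were about as strong as the MRPL36 peak, but the TSS of TCP1 is 865 bp from that of MRPL18. In replicate 2 alone, a peak named for MTBP stood at MRPL13 (12.8), one for FAU at MRPL49 (13.2) and one for EME2 at MRPS34 (7.88). The other 11 had none in either list: MRPL9, MRPL22, MRPL38, MRPL39, MRPL41, MRPL50, MRPS2, MRPS9, MRPS12, MRPS17 and MRPS26. Of the 4 genes named in replicate 1 only, MRPS7 and MRPS18C had an overlapping replicate 2 peak that was assigned to GGA3 (8.48) and HELQ (8.03) instead.

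The proteins that make and serve the mitochondrial ribosome were followed in 5 lists of 70 genes. In both replicates 26 of the 70 had an assigned peak (37.1%, against 28.6% of all protein-coding genes) and 19 a promoter peak (27.1%, against 9.3%), with overlapping promoter peaks at 17. The last count was not set against all genes. By replicate, 30 and 47 of the 70 had an assigned peak, as had 31.3% and 51.7% of all protein-coding genes. A promoter peak was assigned to 27 and 36 of the 70, and to 11.9% and 21.2% of all protein-coding genes. For the synthetases the promoter counts were 6 and 13 of 19. Promoter peaks in both were assigned to 4 of 12 translation factors, 5 of 19 mitochondrial aminoacyl-tRNA synthetases, 5 of 21 genes of ribosome assembly and rRNA modification, 4 of 13 genes of mitochondrial transcription and mRNA stability, and 1 of 5 ribosomal proteins with other symbols (AURKAIP1).

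The strongest of them was at TFB2M, a factor that opens the mitochondrial promoters for the organelle's RNA polymerase. It scored 18.7 in replicate 1 (rank 338) and 37.9 in replicate 2 (rank 302), at -6 bp in both, with 1 TGTTTAC in each, and so ranked above every member of the ribosomal set. The promoter of TEFM, the elongation factor of that polymerase, scored 11.7 and 21.4, and that of LRPPRC, which stabilises mitochondrial mRNAs, 10.6 and 21.3. TSFM, an elongation factor of mitochondrial translation, scored 9.24 and 20.1, and the leucyl-tRNA synthetase gene LARS2 9.62 and 23.9. MTRFR, a release factor homologue that rescues stalled ribosomes, scored 7.73 and 19.2 and was the other promoter with a TGTTTAC in both lists.

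Other families of large complexes were set beside these after the values were seen. A promoter peak in both replicates was assigned to 24 of 88 genes of the cytosolic ribosome (27.3%, 19.1% to 37.4%), 12 of 39 proteasome subunit genes (30.8%, 18.6% to 46.4%) and 8 of 45 genes with NDUF symbols, which encode complex I subunits and assembly factors (17.8%, 9.29% to 31.3%). The share of the mitochondrial ribosomal protein genes was 35.9%, its interval overlapped those of the others, and the differences were not tested. The order depended on the replicate. In replicate 1 the shares were 46.2% for the mitochondrial ribosome, 35.2% for the cytosolic ribosome, 35.9% for the proteasome and 17.8% for NDUF symbols. In replicate 2 they were 52.6%, 45.5%, 59.0% and 51.1%. All protein-coding genes stood at 9.3% in both replicates, 11.9% in replicate 1 and 21.2% in replicate 2.

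**Figure D5:**
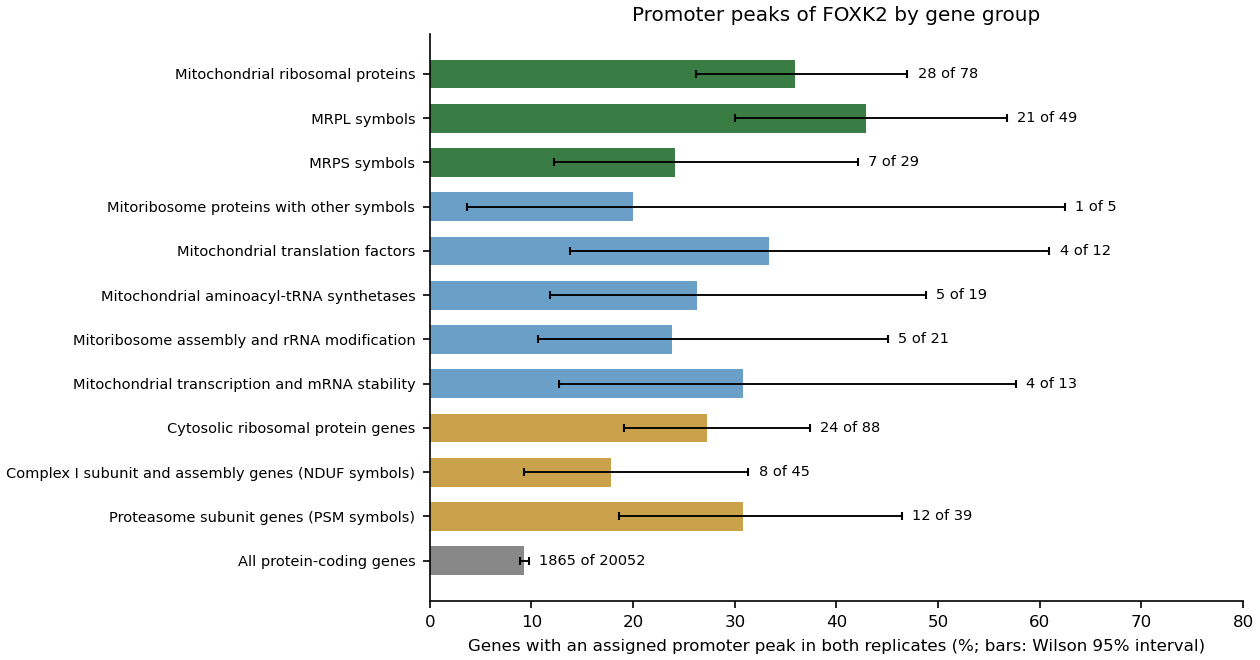
Share of genes with an assigned promoter peak in both replicates (x axis, percent, with Wilson 95% intervals) in the mitochondrial ribosomal protein genes and their subunit symbols (green), other genes of mitochondrial gene expression (blue), other large complexes (yellow) and all protein-coding genes (grey). The mitochondrial ribosomal protein genes stand at 35.9% and all protein-coding genes at 9.3%, and the intervals of the smaller lists are wide.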

How the data were processed

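The FOXK2 peak lists of 2 biological replicates of OVCAR5 were used. Per the study's methods and the submitters' processing notes, the authors aligned single-end reads with Bowtie2 2.2.6 (hg38) and called peaks in HOMER 4.10. The deposited values are a peak score, a focus ratio (the fraction of tags on the expected side of the centre, not used further) and a distance to the nearest TSS (other values of the authors' annotation). All peaks were used, with no further threshold. Total read depth is not in the lists. The score rises in steps of 0.189 and 0.149, and the weakest peak stood at 16 and 21 steps, so weak peaks rest on few tags.

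Genes were matched to RefSeq protein-coding genes by Entrez ID, and promoters by position to GENCODE release 44. Overlap needed 1 bp. Motif letters were matched to either strand in windows reaching 100 bp from the centre. Shares carry Wilson intervals at 95%, and medians order-statistic intervals. The members and lists were chosen with earlier results of these data known, so no set test was made. The genes given in full were the 8 with the best mean percentile of overlapping promoter peaks, those with TGTTTAC in overlapping peaks of both replicates, those with 3 or more peaks in a replicate, and the best peak outside promoters. The alternatives were parts of the lists, equal lengths, limits on distance, stricter overlap, other promoter definitions, other windows and letters, and leaving out a replicate. Overlap and TGTTTAC counting, tested on simulated data in 4 sets, had a largest error of 0. No unplanted overlap or match could arise in those sets, so false matches were not tested. The input libraries were not analysed here. The tools were samtools 1.23.1, pysam 0.24.0, pandas 2.3.3, scipy 1.17.1, numpy 2.4.6 and matplotlib 3.10.9, in Python 3.11.15.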

Additional observations from a re-analysis of the deposited data

How the results depend on the processing

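Of 52 values recomputed under alternative settings, 37 stayed within 1.5 times the count, or within the interval, reported above, and 15 moved. The count of 28 genes whose promoter had a peak in each list became 49 with a peak in either replicate and 18 with the higher-scoring 50% of each list. The promoter count over all protein-coding genes was not set beside it under these settings. Leaving out a replicate gave 47 to 59 genes with an assigned peak and 36 to 41 with a promoter peak. The overlapped share of replicate 1 peaks fell from 83.3% to 71.7% with centres within 100 bp and 70.0% with lists of equal length, and that of replicate 2 rose from 55.7% to 74.5% with equal lengths. The median percentile of replicate 2 was 81.3 for overlapping peaks and 72.4 for promoter peaks. Its promoter share rose from 46.6% to 59.2% for overlapping peaks, 60.3% in the higher-scoring 50% and 60.0% with equal lengths, where the difference between the replicates' promoter shares was within their intervals. The TGTTTAC share fell to 5.41% and 4.88% in promoter peaks, and in replicate 2 to 13.2% within 10000 bp of the TSS, and TGTTTNC was in 38.3% and 39.8% (45.9% and 43.8% of all peaks). The causes were not tested. No paired analysis was possible because the peak lists cover a single condition, with 1 list per replicate and none for the input libraries. A comparison of ChIP with input, paired by replicate, was not made. Peaks called separately in lists of unequal length limit what the absence of a peak says.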
